A study of Mus musculus with 6 samples.

Results

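The genes of mitosis and the spindle were examined as a set of 45, chosen by name for their roles in entry into mitosis, the kinetochore, the spindle and cytokinesis, in leukaemic blasts of 2 genotypes. All 45 were found by symbol among 24454 Entrez gene IDs, and all 45 passed the filter on low values, which left 12642 genes tested. The study compared Stat3β TG with WT blasts, with 3 RNA-seq libraries in each group. Stat3β TG blasts came from fetal liver cells of C57BL/6 mice with Mx1-Cre and a Stat3β transgene, and WT blasts from those of wild-type littermates. Stat3β, a splice form of STAT3, lacks part of the transactivation domain of that transcription factor. Cells of both groups carried a retrovirus for MLL-AF9, the fusion oncogene of an acute myeloid leukaemia. They were grown in NSG recipients, an immunodeficient strain without mature T, B or NK cells. Per the shared protocol, recipients were given poly(I:C) at 4 weeks to induce Cre, and blasts were sorted from bone marrow at 6 weeks. Mx1-Cre answers to interferon and is not restricted to blasts, and the labels name no Cre in WT, so Cre and the transgene cannot be told apart here.

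A cell enters mitosis when cyclin B and CDK1 form an active kinase, which CDC25 phosphatases switch on and the Polo and Aurora kinases reinforce. Chromosomes attach to the spindle through kinetochores, and the spindle assembly checkpoint holds back the anaphase-promoting complex until every chromosome is attached. That complex, with CDC20 or later CDH1 (the product of Fzr1), then marks cyclin B and securin for destruction, and the central spindle directs cytokinesis. Most of these genes are transcribed in G2 and M phase, under the MuvB complex with B-MYB and FOXM1, through promoter elements called CHR that often lie near CCAAT boxes bound by NF-Y. In bulk RNA their level follows both the share of blasts in G2 and M phase and the RNA per cell, and these cannot be told apart.

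Promoter sequences are shown first, because most members hold these elements, which played no part in choosing them. RefSeq promoter windows of 300 bases, from 250 before to 50 after the transcription start (GRCm38.p6), were matched for 38 members in 41 windows. The 7 members without a window were Ccna2, Cdc25c, Aurkb, Incenp, Spc24, Tpx2 and Kif20a. The CHR letters TTTGAA, read on both strands, occurred in 31 of the 41 windows (75.6%), against 5878 of all 32851 windows (17.9%). The letters CCAAT, on both strands, occurred in 33 windows of the members (80.5%), against 37.4% of all windows. Both motifs occurred together in 68.3% of the members' windows, against 6.95% of all. The 120 bases before the start of 6 members follow, with capitals for the letters TTTGAA and for TTTAAA and for the letters CCAAT, each on either strand. None of these motifs overlaps another in the 6 stretches. Cdc20, Cdk1 and Ccnb1 are from the members whose groups did not overlap, and Ube2c, Kif11 and Ccnf from those whose groups did. These 6 are examples and do not reflect how often TTTGAA occurred in either set, which is given below.
Cdc20 (chr4:118437344-118437463, minus strand): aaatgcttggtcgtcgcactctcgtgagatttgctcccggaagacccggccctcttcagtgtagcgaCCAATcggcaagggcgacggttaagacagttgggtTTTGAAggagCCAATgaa
Cdk1 (chr10:69352913-69353032, minus strand): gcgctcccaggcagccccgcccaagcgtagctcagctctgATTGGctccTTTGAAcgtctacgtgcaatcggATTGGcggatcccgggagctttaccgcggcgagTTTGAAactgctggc
Ccnb1 (chr13:100786487-100786606, minus strand): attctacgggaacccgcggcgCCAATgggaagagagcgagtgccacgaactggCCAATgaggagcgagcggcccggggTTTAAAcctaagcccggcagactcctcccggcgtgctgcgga
Ube2c (chr2:164769809-164769928, plus strand): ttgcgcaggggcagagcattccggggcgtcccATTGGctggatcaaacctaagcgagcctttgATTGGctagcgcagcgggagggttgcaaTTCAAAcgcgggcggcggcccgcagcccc
Kif11 (chr19:37376262-37376381, plus strand): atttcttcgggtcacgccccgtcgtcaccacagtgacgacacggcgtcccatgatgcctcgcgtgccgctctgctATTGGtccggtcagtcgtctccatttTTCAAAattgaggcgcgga
Ccnf (chr17:24251410-24251529, minus strand): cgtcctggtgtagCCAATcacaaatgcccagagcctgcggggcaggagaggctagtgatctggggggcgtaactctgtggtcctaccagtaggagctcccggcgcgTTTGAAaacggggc

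The CHR letters nearest the start begin 18 bases before it in Cdc20, 15 in Cdk1, 29 in Ube2c, 19 in Kif11 and 14 in Ccnf. Ccnb1 holds no TTTGAA in its window, and has TTTAAA, which is its own reverse complement, 42 bases before the start. TTTAAA occurred in 22.0% of the members' windows, against 13.2% of all windows. Among the members whose groups did not overlap, 9 of the 10 with a window held TTTGAA, against 19 of the 28 with a window among the other members. Missing windows fell unevenly, on Ccna2, Cdc25c, Aurkb, Incenp and Tpx2 in the first set and on Spc24 and Kif20a in the other. The difference between the sets was not tested. A match describes these letters only and shows no binding.

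Levels are normalized counts, which are reads divided by a size factor for each library, and the groups were compared with limma, a linear model fitted across all genes, on log2(normalized count + 1). Across the 6 libraries, 40 of the 45 members had a lower mean log2 level in Stat3β TG than in WT, and 5 had a higher one (Ndc80, Spc24, Spc25, Anln and Mki67), of which Anln, at 0.01, was below 0 by quantile and TMM scaling, edgeR and DESeq2. Cdc25c, Ccnb1, Cdc25b, Cdc20 and Cdk1 had the most negative log2 fold changes, at -0.71, -0.55, -0.52, -0.49 and -0.43. The median log2 fold change of the members was -0.17, with a range of -0.71 to 0.13, against 0.01 over all genes tested, of which 48.6% were below 0. No member passed an adjusted p of 0.05 by limma, whose lowest adjusted p among the members was 0.668, nor by edgeR (0.688) or DESeq2 (0.268). Over all genes limma and edgeR passed 0% and DESeq2 passed 0.134%. At an unadjusted p under 0.05, limma counted 9 members lower in Stat3β TG and 0 higher, or 20% of the members, where 2.54% of all genes tested were lower and 3.56% higher at that level. They were Cdc25c, Cdc20, Cdk1, Ccnb1, Ect2, Incenp, Kif4, Aurkb and Kif22, with unadjusted limma p between 0.0115 and 0.0327. There edgeR counted 10 members by adding Cdc25b, where 3.58% of all genes were lower, and DESeq2 counted 11 by adding Tpx2 as well, where 4.34% were. In 15 members every Stat3β TG library lay below every WT library, and in 0 every one lay above. Over all genes tested 4.92% had groups that did not overlap in the lower direction and 5.87% in the higher. Leaving out WT 1 brought the members below 0 to 29 of 45.

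**Figure D1:**
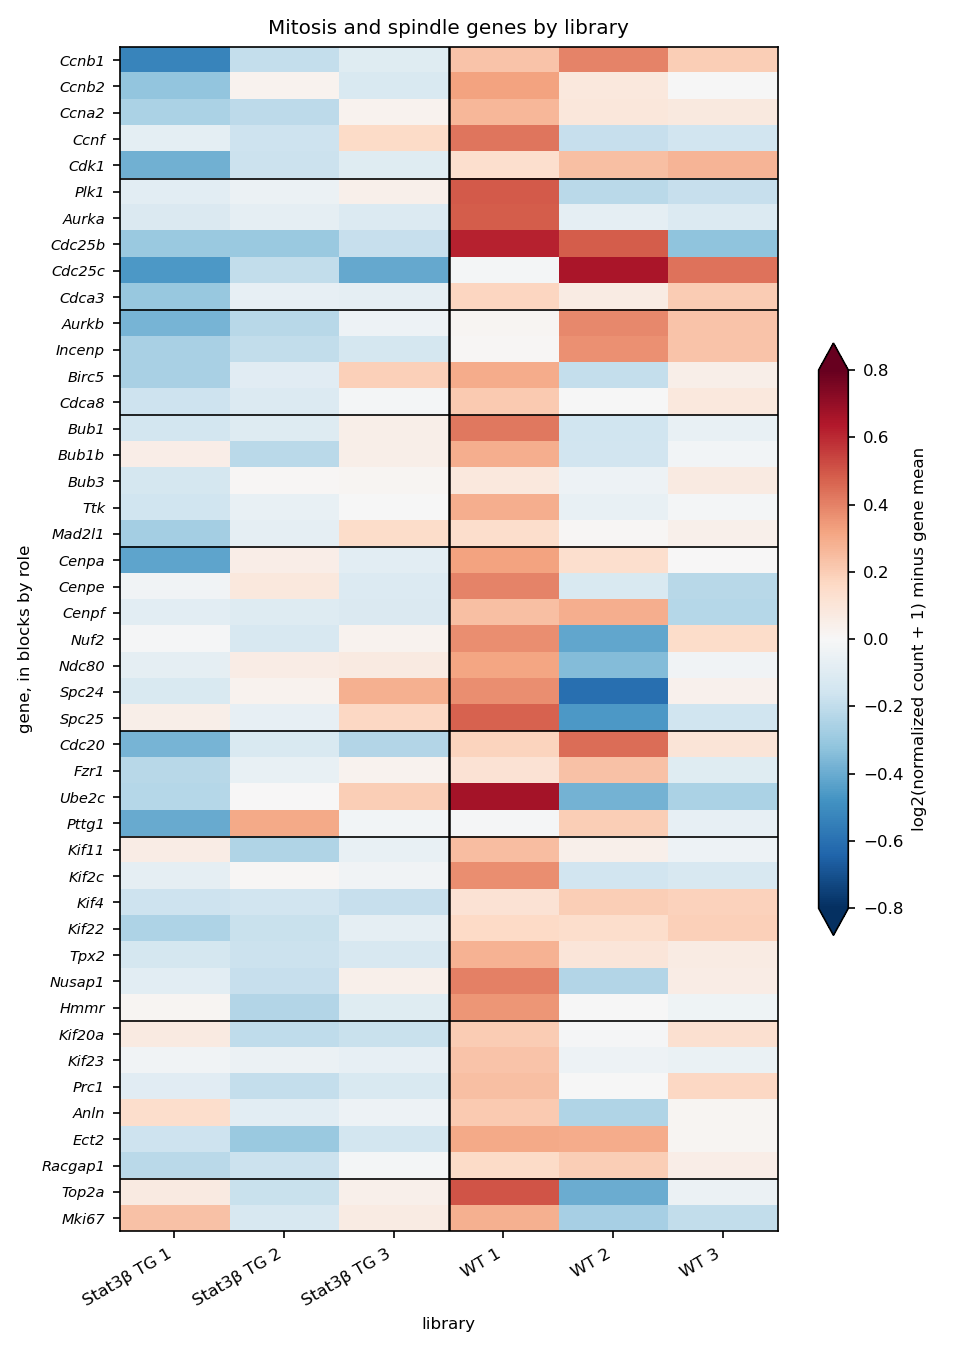
Heat map of the 45 mitosis and spindle genes (rows, in blocks by role) in 6 libraries (columns, Stat3β TG left of WT), coloured by log2(normalized count + 1) minus the gene's mean over the libraries. WT 1 is the highest library in 31 genes, and Stat3β TG 1 the lowest in 20.

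Between 21809788 and 51934498 reads were recovered from a library, and the fewest reads behind any value of a member were 414 (Pttg1 in WT 3). On the first principal component over all genes Stat3β TG 1 to 3 were at -31.4, -16.3 and -28.2, and WT 1 was on their side at -38.3, while WT 2 and WT 3 were at 64.4 and 49.7. Xist, the RNA of the inactive X chromosome, was instead lower in every Stat3β TG library than in every WT library. It had 71.6, 25.9 and 19.1 normalized counts in Stat3β TG, against 42699, 835 and 45196 in WT. The difference in Xist thus runs with genotype, and their parts in the values of any member cannot be told apart. Gene-level Stat3, which sums both splice forms, was at 9670 ± 1555 normalized counts in Stat3β TG and 11683 ± 4086 in WT (SD, n = 3 each). The blast markers Ptprc, Kit, Cd34, Itgam, Hoxa9, Meis1, Mpo and Elane were present in all libraries. Of the T and NK cell markers, Cd3e was at 0 in all 6. The others in the table were not, with Cd3d at 1.41 to 20.7 normalized counts, Nkg7 at 103 to 1415 and Ncr1 at 0 to 34.1. The labels do not say that replicates came from separate donors or recipients, so each p covers the spread between these libraries alone.

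The libraries also held unlike levels of markers of mature cells. All 14 mature neutrophil markers had log2 fold changes above 0, and their summed normalized counts were 399952 to 596098 in Stat3β TG, against 113650.3 to 387721 in WT, without overlap. Of the 10 tested monocyte and macrophage markers 7 were above 0, with sums of 57394 to 110303 in Stat3β TG, against 51690.5 to 65565 in WT. Eosinophil and mast cell markers summed to 9685 to 14996 in Stat3β TG, against 14993 to 47145 in WT, and erythroid markers to 3793 to 4621 in Stat3β TG, against 4701 to 5859 in WT. Markers of T and NK cells summed to 644 to 933 in Stat3β TG, against 114 to 1458 in WT, and those of B cells to 85.0 to 286 in Stat3β TG, against 40.6 to 118 in WT. WT 1, the library with the highest sum over the 45 genes, had the highest neutrophil sum in WT. The part of these cell types in the mitotic values was not tested.

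Of the cyclins and their kinase, all 5 had log2 fold changes below 0, and 3 had groups that did not overlap. Gene positions below are those of RefSeq on GRCm38.p6. Ccnb1 (chr13:100778739-100786486), the mitotic cyclin B1, had 746, 942 and 1005 normalized counts in Stat3β TG 1 to 3, against 1264, 1415 and 1233 in WT 1 to 3. The lowest WT library thus lay above the highest Stat3β TG library, and the log2 fold change was -0.55 with a standard error of 0.18. Cdk1 (chr10:69335146-69352912), the kinase that cyclins A and B activate, had 4193, 4856 and 5112 in Stat3β TG, against 6000.1, 6463 and 6608 in WT. Its WT libraries lay close together and above all Stat3β TG libraries (log2 fold change -0.43, standard error 0.14). Ccna2, the cyclin of S and G2 phase, had 5493, 5679 and 6680.0 in Stat3β TG, against 7874, 6985 and 6932 in WT. It did not overlap either, though Stat3β TG 3 came near WT 3. Ccnb2, cyclin B2, had 3894, 4939.8 and 4456 in Stat3β TG, against 6063, 5133 and 4819.5 in WT, and overlapped. Ccnf, the F-box protein cyclin F, had a log2 fold change of -0.06.

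Cyclin B1 and cyclin B2 were also compared within each library. The ratio of Ccnb1 to Ccnb2 normalized counts was 0.203 ± 0.0198 in Stat3β TG and 0.247 ± 0.0345 in WT (SD, n = 3 each), and the groups overlapped at WT 1. Per kilobase of exon, Ccnb1 stood at 361 normalized counts in Stat3β TG and 524 in WT, and Ccnb2 at 2894 in Stat3β TG and 3487 in WT. RefSeq lists pseudogenes of Ccnb1, Ccnb2, Kif4 and Kif22, so reads of these genes may be shared or lost.

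Among the kinases and phosphatases of mitotic entry, the CDC25 phosphatases had the most negative log2 fold changes. Cdc25c, which activates CDK1 at mitotic entry, had 555, 665 and 575 normalized counts in Stat3β TG, against 754, 1199 and 1034 in WT. The groups did not overlap, with WT 1 nearest to Stat3β TG, and the log2 fold change was -0.71 with a standard error of 0.22. Cdc25b, which acts earlier at the centrosome, had 1185, 1186 and 1281 in Stat3β TG, against 2231, 2039 and 1162 in WT. WT 3 lay below all Stat3β TG libraries and the other WT libraries far above them (log2 fold change -0.52, standard error 0.25). Cdca3, a trigger of mitotic entry, had 3508, 4143 and 4114 in Stat3β TG, against 4874, 4519 and 4984 in WT, with no overlap. Plk1, the Polo-like kinase, had 2809.6, 2881 and 3059 in Stat3β TG, against 4176, 2557 and 2617 in WT. Aurka, the centrosomal Aurora kinase, had 2876, 2969 and 2896 in Stat3β TG, against 4366, 2969 and 2892 in WT. In both genes WT 1 stood far above all other libraries, which lay close together.

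The chromosomal passenger complex, which corrects faulty attachments and steers cytokinesis, had 3 of 4 members without overlap. Aurkb (chr11:69045624-69051664), its kinase, had 3654, 4056 and 4598 normalized counts in Stat3β TG, against 4775, 6165 and 5524 in WT (log2 fold change -0.42, standard error 0.16). Incenp (chr19:9872295-9899489), its scaffold, had 8247, 8592 and 8958 in Stat3β TG, against 9920.4, 12692 and 11549 in WT (log2 fold change -0.40, standard error 0.15). In both genes WT 2 was the highest and WT 1 the lowest WT library, where Aurka and Plk1 were highest in WT 1. Cdca8, the subunit borealin, had 4272, 4429 and 4728 in Stat3β TG, against 5545, 4777 and 5076 in WT, with a small gap between Stat3β TG 3 and WT 2. Birc5, the subunit survivin, was at 3393 ± 543 in Stat3β TG and 3658 ± 617 in WT (SD, n = 3 each), and overlapped. The ratio of Aurkb to Aurka was 1.27, 1.37 and 1.59 in Stat3β TG, within the WT values of 1.09, 2.08 and 1.91.

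The spindle assembly checkpoint showed the smallest spread of fold changes among the roles with 4 or more genes. Its 5 genes had log2 fold changes between -0.15 and -0.08, and all 5 overlapped. Bub1b, which encodes the checkpoint protein BUBR1, had 5338, 4419 and 5310.3 normalized counts in Stat3β TG, against 6302, 4613 and 5067 in WT. Bub3, its partner, had 5599, 6208 and 6222 in Stat3β TG, against 6538, 6008 and 6476 in WT. WT 1 was the highest library in 4 of the 5, namely the kinase genes Bub1 and Ttk with Bub1b and Bub3. In Mad2l1, whose product MAD2 inhibits CDC20, Stat3β TG 3 was highest.

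Genes of the kinetochore and centromere were mixed, with 4 of 7 below 0 and no group without overlap. Cenpa, the histone variant that marks centromeres, had 2577, 3569 and 3248 normalized counts in Stat3β TG, against 4306, 3781 and 3452 in WT (log2 fold change -0.30, standard error 0.17). The 4 subunits of the NDC80 complex, which binds microtubules, had log2 fold changes of -0.07 (Nuf2), 0.04 (Ndc80), 0.13 (Spc24) and 0.10 (Spc25). Spc24 shows their pattern, with 1444, 1602 and 1916 in Stat3β TG, against 2037, 1036 and 1613 in WT. WT 1 was the highest and WT 2 the lowest library in all 4 of these genes. Cenpf, a large kinetochore protein, was at 3744 ± 42.8 in Stat3β TG and 4351 ± 807 in WT, and Cenpe, a kinetochore motor, at 4481 ± 310.4 in Stat3β TG and 4667 ± 1120.5 in WT (SD, n = 3 each).

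**Figure D2:**
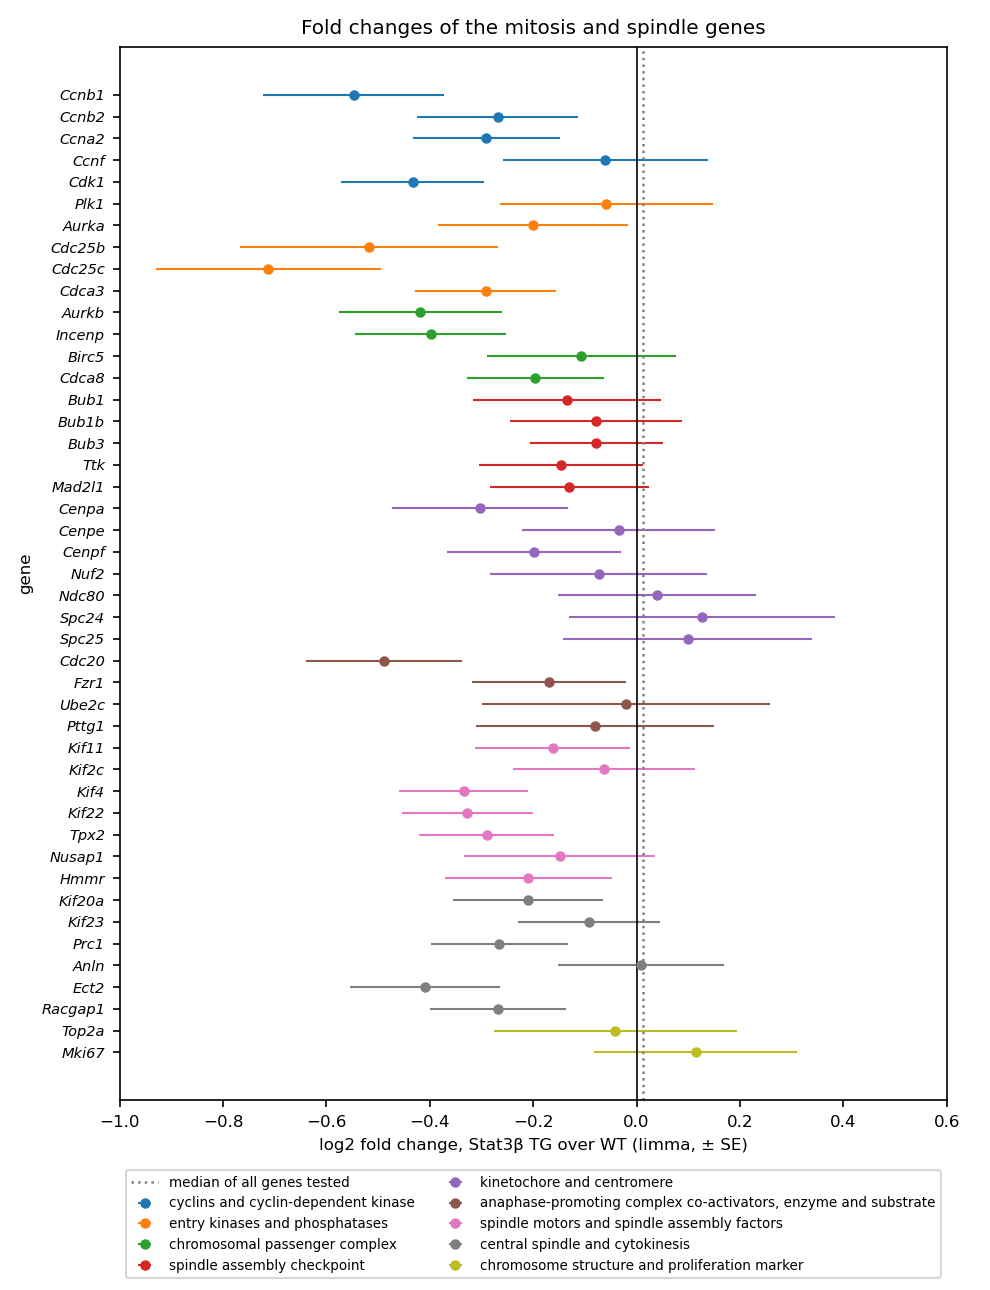
Log2 fold change of each of the 45 genes, Stat3β TG over WT (x axis, points with limma standard error), in rows coloured by role, with the median of all genes tested as a dotted line. Of the 45 points 40 lie below 0, and the most negative is Cdc25c at -0.71.

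Of the 4 genes around the anaphase-promoting complex, which are its co-activators, enzyme and substrate, Cdc20 was the 1 whose groups did not overlap. Cdc20 (chr4:118432901-118437343), which starts anaphase, had 2943, 3504 and 3243 normalized counts in Stat3β TG, against 4324, 5205 and 4102 in WT. Stat3β TG 2 was the highest and WT 3 the lowest library on either side of the gap (log2 fold change -0.49, standard error 0.15). Fzr1, whose product takes over late in mitosis and in G1, had 2856, 3198 and 3391 in Stat3β TG, against 3611, 3918 and 3115 in WT, and overlapped. The ratio of Cdc20 to Fzr1 was 1.03, 1.1 and 0.956 in Stat3β TG, against 1.2, 1.33 and 1.32 in WT, also without overlap. The other ratios taken, Ccnb1 to Ccnb2, Aurkb to Aurka, Cdc25c to Cdc25b and Cdk1 to Ccnb1, all overlapped. Ube2c, the ubiquitin-conjugating enzyme of the complex, had 2789, 3265 and 3732 in Stat3β TG, against 5176, 2507 and 2733 in WT. WT 1 stood far above all other libraries there, and WT 2 and WT 3 below all of Stat3β TG. Pttg1, the substrate securin, was at 605 ± 147 in Stat3β TG and 629 ± 61.3 in WT (SD, n = 3 each).

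All 7 spindle motors and assembly factors had log2 fold changes below 0. Kif4 (chrX:100626065-100727271), a chromosome-bound kinesin, had 2238, 2259 and 2215 normalized counts in Stat3β TG, against 2726, 2886 and 2855 in WT (log2 fold change -0.33, standard error 0.13). The libraries of each group lay close together, and the groups stood well apart. Kif4 is on the X chromosome, where Xist differs between libraries as given above, and the part of that difference in its values was not tested. All WT libraries had more Xist and more Kif4 than all Stat3β TG libraries. Within WT the order differed, with WT 2 the lowest for Xist and the highest for Kif4. Kif22 (chr7:127027729-127042467), a kinesin that pushes chromosome arms, had 3456, 3619 and 3903 in Stat3β TG, against 4572, 4521 and 4665 in WT (log2 fold change -0.33, standard error 0.13). Tpx2, which activates Aurora A on the spindle, had 5934, 5815 and 5987 in Stat3β TG, against 7924, 6981 and 6829 in WT, again with no overlap. The other 4 overlapped. Kif11, which slides the spindle poles apart, had a log2 fold change of -0.16, and Kif2c, which depolymerizes microtubules, of -0.06. Nusap1, which bundles microtubules, was at -0.15, and Hmmr, a TPX2 partner at the spindle poles, at -0.21.

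In the central spindle and cytokinesis group 3 of 6 genes did not overlap. Ect2 (chr3:27097222-27154253), the exchange factor that activates RhoA at the cleavage site, had 2499.7, 2285 and 2537 normalized counts in Stat3β TG, against 3462, 3457 and 2835 in WT (log2 fold change -0.41, standard error 0.14). Racgap1, which recruits ECT2 in the centralspindlin complex, had 5457, 5603 and 6262 in Stat3β TG, against 7038, 7244 and 6564 in WT. Prc1, which bundles midzone microtubules, had 4432, 4135 and 4324 in Stat3β TG, against 5555, 4693 and 5284 in WT. Racgap1 and Prc1 each had a log2 fold change of -0.27, with a standard error of 0.13. Kif23, the motor of centralspindlin, overlapped at -0.09, as did Kif20a, another motor of the central spindle, at -0.21. Anln, the ring protein anillin, was at 3834 ± 323 in Stat3β TG and 3834 ± 590.0 in WT (SD, n = 3 each).

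**Figure D3:**
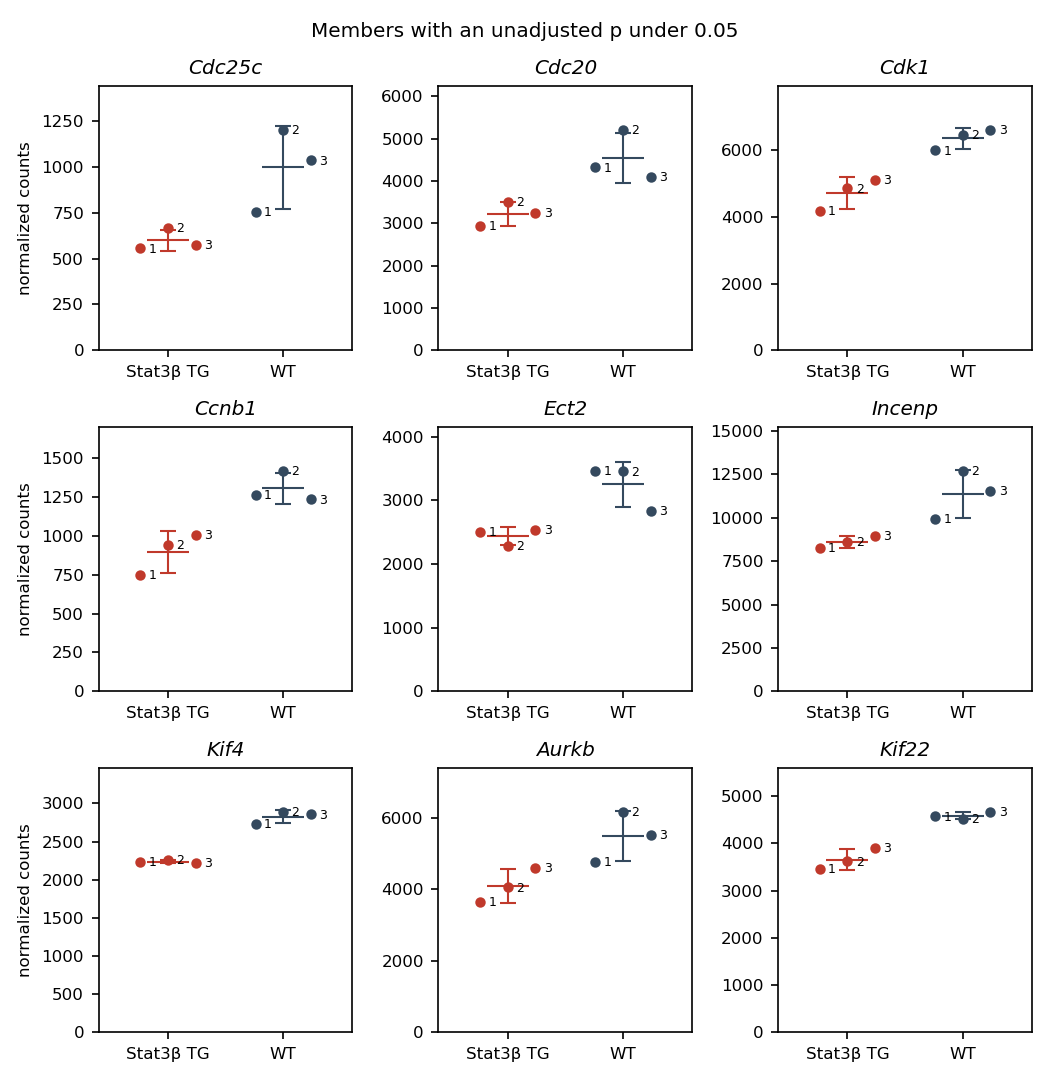
Normalized counts (y axis, from 0) of the 9 members with an unadjusted limma p under 0.05, in Stat3β TG (red, left) and WT (dark, right). Points are libraries marked with their replicate number, and bars are the mean ± SD of 3. In all 9 panels every Stat3β TG point lies below every WT point.

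The 2 genes most used as general marks of dividing cells had log2 fold changes near 0. Mki67, which encodes the Ki-67 antigen, had 30993, 24143 and 27664 normalized counts in Stat3β TG, against 32150.0, 21997 and 23065 in WT (log2 fold change 0.11, standard error 0.20). Top2a, the DNA topoisomerase of S to M phase, had 21094, 17725 and 20666 in Stat3β TG, against 28444, 15230.3 and 19434 in WT (log2 fold change -0.04, standard error 0.23). WT 1 was the highest and WT 2 the lowest library in both. Per kilobase of exon Top2a was the most abundant of the 45, at 3798 in Stat3β TG and 4029 in WT. The 45 genes together held 0.627%, 0.62% and 0.699% of the library's normalized counts in Stat3β TG 1 to 3. In WT 1 to 3 they held 0.861%, 0.69% and 0.673%, so that in this sum only WT 1 stood apart. Mki67 and Top2a alone held 0.167%, 0.137% and 0.166% in Stat3β TG, against 0.208%, 0.126% and 0.138% in WT. The sum thus leans on these 2 genes and does not describe the other members one by one.

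The members' direction thus differed between WT libraries. WT 1 lay above all Stat3β TG libraries in 43 of the 45 genes and within their range in Mad2l1 and Pttg1, where 21.4% of all genes tested had WT 1 above. WT 2 lay above in 21 genes and below in 14, and WT 3 above in 19 and below in 8. Over all genes tested WT 2 lay above in 34.8% and below in 36.8%, and WT 3 above in 32.9% and below in 34.7%. The members' shares were 46.7% above and 31.1% below for WT 2, and 42.2% above and 17.8% below for WT 3, much nearer to those of all genes than for WT 1. WT 1 was the highest of the 6 libraries in 31 genes (68.9%), where it was highest in 14.1% of all genes tested. Stat3β TG 1, 2 and 3 were lowest in 20, 7 and 2 genes (44.4%, 15.6% and 4.44%), where they were lowest in 16.2%, 8.94% and 15.6% of all genes tested. WT 2 was lowest in 13 (28.9%), near its 26.0% of all genes tested. In 12 genes, namely Plk1, Cenpe, Spc25, Ube2c, Kif2c, Mki67, Ccnf, Bub1, Ndc80, Spc24, Anln and Top2a, WT 1 lay above and WT 2 below the whole range of Stat3β TG. The spread within groups was smaller in Stat3β TG than in WT in 34 of the 45 genes, with a median coefficient of variation of 8.42% in Stat3β TG and 12.8% in WT. Over all genes tested it was smaller in Stat3β TG in 68.9%, so the members were near the background in this.

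Without WT 1 the members below 0 numbered 29 of 45, where 48.7% of all genes were, and their median stood at -0.09. The count at an unadjusted limma p under 0.05 was still 9, all lower, but at that level 12.1% of all genes were lower in that fit. The lowest adjusted p among the members was then 0.0517 by limma, and 346 of 12642 genes (2.74%) passed. With WT 2 left out 44 members were below 0 (median -0.25), where 49.1% of all genes were, and with WT 3 left out 40 (median -0.20), where 48.5% were. In each of the 9 members lower at an unadjusted p under 0.05, every Stat3β TG library lay below every WT library. Leaving out 1 library could therefore not bring their log2 fold changes above 0, and all 6 such fits gave values below 0. Cdc20 was between -0.56 and -0.39, Ccnb1 between -0.63 and -0.42 and Cdk1 between -0.49 and -0.35. Cdc25c and Cdc20 were at that p in all 6 of these fits. The count of members at that p was 3 without Stat3β TG 1, where 1.65% of all genes were lower, and 4 without Stat3β TG 2, where 1.44% were. Against WT 1 alone all 45 were below 0, where 49.6% of all genes were, with a median of -0.35. There 12 members were lower at an unadjusted limma p under 0.05 (1.72% of all genes), and Ect2 was the only one of the 9 among them. Against WT 2 alone the median was -0.10, with 9 members lower (11.3% of all genes) and Spc24 and Spc25 higher at that level. In each of these fits the lone WT library was assumed to vary like the others, so the counts at that level cannot decide a difference. Against WT 2 alone a larger share of all genes than of members was higher at that level, so Spc24 and Spc25 do not stand out there.

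**Figure D4:**
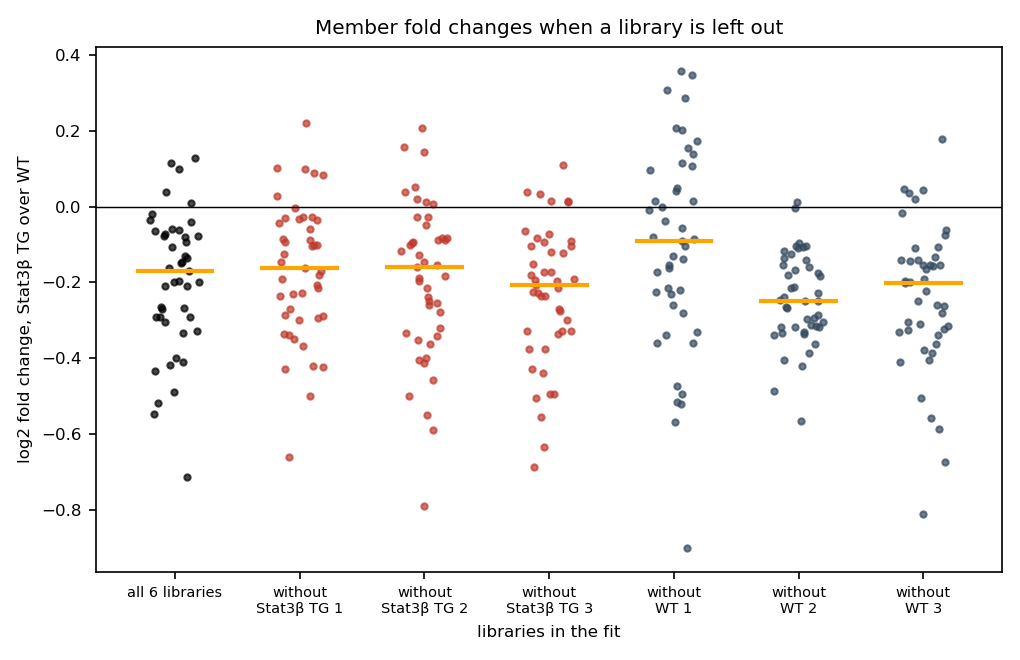
Log2 fold changes of the 45 genes, Stat3β TG over WT (y axis), with all 6 libraries and with each library left out in turn (x axis); each point is a gene and the orange line their median. The median is -0.17 with all libraries, -0.09 without WT 1 and -0.25 without WT 2.

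Other mitotic genes were examined in a list of 57 that are not members. Of these, 50 were below 0, at a median log2 fold change of -0.24 against 0.01 over all genes tested. At an unadjusted limma p under 0.05, 16 were lower and 1 higher, and in 25 the groups did not overlap in the lower direction and in 1 in the higher, beside the shares of all genes given above. Nek2, a centrosomal kinase, had 1250.2, 1532 and 1652 normalized counts in Stat3β TG, against 2134, 3295 and 2779 in WT (log2 fold change -0.88, standard error 0.20). Troap, a spindle-associated protein, had 1233, 1362 and 1219.7 in Stat3β TG, against 1875, 1989.9 and 1843 in WT (log2 fold change -0.58, standard error 0.14). Sgo2a, a shugoshin that protects centromeric cohesion, and Ska3, a kinetochore subunit, had -0.48 and -0.54. None passed an adjusted p of 0.05, their lowest being 0.668 by limma. Zw10, which brings dynein to kinetochores, was the 1 gene in the other direction at an unadjusted p under 0.05 (log2 fold change 0.55). Counts lower at an unadjusted limma p under 0.05 changed when 1 library was left out. They were 9, 5 and 7 without Stat3β TG 1, 2 and 3, where 1.65%, 1.44% and 1.57% of all genes were lower. They were 15, 8 and 10 without WT 1, 2 and 3, where 12.1%, 1.13% and 1.41% of all genes were lower. Without WT 1 the list had 45 of 57 below 0 and a median of -0.23. WT 1 was the highest library in 20 of the 57 (35.1%), WT 2 in 18 (31.6%) and WT 3 in 16 (28.1%). Over all genes tested WT 1, WT 2 and WT 3 were highest in 14.1%, 23.95% and 18.4%.

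The rest of the pathway gave smaller or mixed values, with 0 genes past an adjusted p of 0.05 by limma in any list. The counts below 0 stand beside 48.6% of all genes tested. Of 16 subunits and regulators of the anaphase-promoting complex 10 were below 0 and 0 had an unadjusted limma p under 0.05, with Anapc1 at -0.33 and Cdc27 at -0.34. Of 17 transcription factors and MuvB subunits that act on G2/M genes 10 were below 0, also with 0 at that level. Foxm1 had 4348, 3780.0 and 4214 normalized counts in Stat3β TG, against 4584, 5237 and 5779 in WT, without overlap (log2 fold change -0.33, standard error 0.15). Mybl2, which encodes B-MYB, had 1458, 1432 and 1436 in Stat3β TG, against 1315, 2071 and 2700.3 in WT, and WT 1 lay below all of Stat3β TG. Nfya, an NF-Y subunit, had a log2 fold change of 0.50. Of 11 brakes and switches of mitotic entry 3 were below 0, with a median of 0.16 and 0 at an unadjusted limma p under 0.05. WT 2 was the lowest library in 7 of the 11, where it was lowest in 26.0% of all genes tested. Without WT 2, 6 were below 0, where 49.1% of all genes were, with a median of -0.02. The list held Gadd45a, a stress-induced inhibitor of CDK1, at 2608 ± 1213 in Stat3β TG and 4059 ± 92.3 in WT (SD, n = 3 each), without overlap.

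In genes of DNA replication WT 2 was the library that stood apart. Of 20 tested 7 were below 0, where 48.6% of all genes were, at a median log2 fold change of 0.09. Pole, a DNA polymerase subunit, was the 1 with an unadjusted limma p under 0.05 (log2 fold change -0.47), where 2.54% of all genes were lower. WT 2 was the lowest library in 15 of the 20, where it was lowest in 26.0% of all genes tested. Without WT 2, 18 were below 0, where 49.1% of all genes were, with a median of -0.14. The median over genes of the log2 level relative to the gene's mean was -0.02, 0.02 and 0.06 for replication genes in Stat3β TG, against 0.15, -0.45 and 0.22 in WT. For the 45 members it was -0.15, -0.12 and -0.04 in Stat3β TG, against 0.28, -0.0036 and 0.01 in WT. The difference between the 2 lists was not tested.

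**Figure D5:**
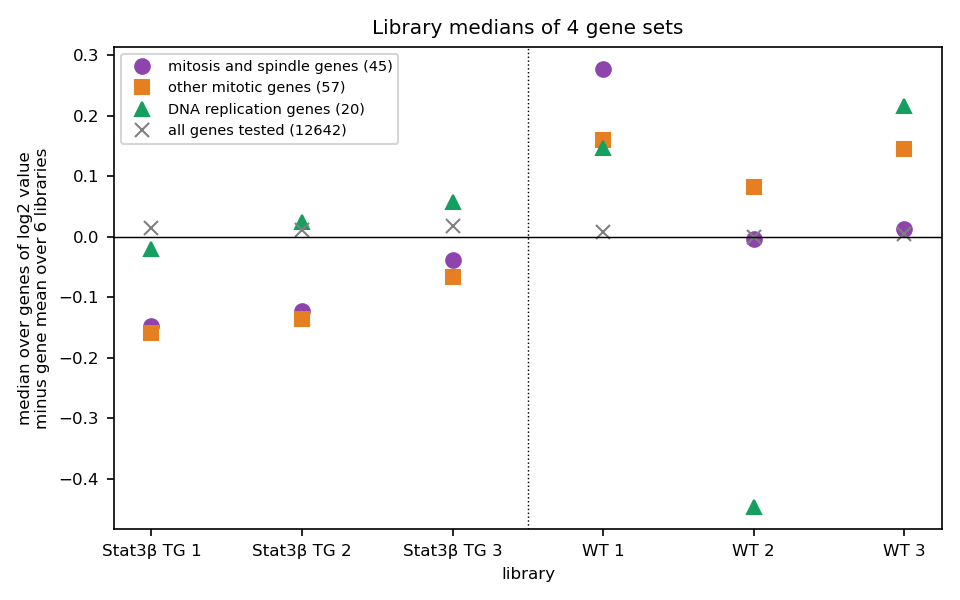
Median over genes of log2(normalized count + 1) minus the gene's mean over 6 libraries (y axis) for 4 gene sets (symbols, with their number of genes) by library (x axis, Stat3β TG left of WT). The members lie at 0.28 in WT 1, and the replication genes at -0.45 in WT 2.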

How the data were processed

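RNA-seq was measured in 3 Stat3β TG and 3 WT libraries, grouped by sample title. The values the authors deposited are normalized counts per Entrez gene, a signal that is never negative. The tools named in the submitters' processing notes are FastQC, STAR and DESeq2, and the build is GRCm38 (mm10). Tool versions, the read counter, strand handling and the annotation release were not given in the sources used here. All 146724 values (100%) were whole multiples, within 0.001, of 1 step per library, so whole reads were recovered. Of 24454 IDs, 24376 had a symbol in RefSeq GRCm38.p6, and exon lengths came from GENCODE M21. No 2 libraries agreed within sampling noise (chi-square per gene 62.3 to 212).

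Genes with at least 10 normalized counts in at least 3 libraries were tested on log2(normalized count + 1) with limma 3.58.1 in R 4.3.3 (trend, robust, two-sided, group only, Benjamini-Hochberg over all genes tested, threshold 0.05). Fold changes are on that scale, which understates low genes. The edgeR 4.0.16 quasi-likelihood test and the DESeq2 1.42.0 Wald test were run on recovered reads, and the scripts were tested on simulated data. Alternatives changed the pseudocount, filter, scaling, moderation, replicate block and libraries. Values per library were given for members with an unadjusted p under 0.05, those whose groups did not overlap and the most abundant per role by exon length, with a few others, chosen after their values were seen, where their libraries differed, and up to 4 genes of each other list by p. Zw10 was named after its value was seen. The members and lists were chosen with earlier results of these data known.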

Additional observations from a re-analysis of the deposited data

How the results depend on the processing

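Other pseudocounts (0.5 and 5), filters (none, or at least 50), scalings (quantile, TMM) and moderation left the members at 0 past the adjusted threshold, 9 at an unadjusted p under 0.05 and a median log2 fold change of -0.18 to -0.17. The replicate numbers of the titles did not pair the libraries (correlations of same-numbered deviations 0.14, 0.10 and -0.11); with the replicate block 0 genes and 0 members passed and 7 members (all but Kif4 and Kif22 of the 9) had an unadjusted p under 0.05, where 2.58% of all genes were lower; of the 57 other mitotic genes 9 were lower at that level, against 16 without the block. Genes past the adjusted threshold, 0 by limma with all libraries, numbered 17 by DESeq2, 9 against WT 1 alone, 740 against WT 2 alone, and 0 to 346 when 1 library was left out (346 without WT 1, 5 without WT 2). Members at an unadjusted p under 0.05 numbered 3 to 9 when 1 library was left out, where 1.13% to 12.1% of all genes were lower. Their median was -0.35 against WT 1 alone, -0.10 against WT 2 alone, and -0.25 to -0.09 when 1 library was left out.

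Of the 45 members 28 kept the sign of their log2 fold change in every alternative run. These include the 15 whose groups did not overlap, where leaving out libraries could not change the sign. The other 17 of the 45 members changed sign in at least 1 alternative run, and none of them passed the adjusted threshold there. Against WT 2 alone the values were 0.15 for Ccnf, 0.19 for Plk1, 0.13 for Birc5, 0.094 for Bub1, 0.12 for Bub1b, 0.10 for Cenpe, 0.38 for Nuf2, 0.37 for Ube2c, 0.12 for Kif2c, 0.16 for Nusap1 and 0.38 for Top2a. Against WT 1 alone they were -0.30 for Ndc80, -0.31 for Spc24, -0.42 for Spc25, -0.20 for Anln and -0.23 for Mki67. Anln was also at -0.0011 by quantile normalization, -0.00053 by TMM, -0.0074 by edgeR and -0.0078 by DESeq2. With 1 library left out, Ccnf ranged from -0.17 to 0.14, Plk1 from -0.18 to 0.17, Birc5 from -0.23 to 0.016, Bub1 from -0.25 to 0.042, Bub1b from -0.18 to 0.049, Cenpe from -0.15 to 0.15, Nuf2 from -0.30 to 0.10, Ndc80 from -0.13 to 0.21, Spc24 from -0.14 to 0.35, Spc25 from -0.11 to 0.36, Ube2c from -0.22 to 0.31, Pttg1 from -0.25 to 0.10, Kif2c from -0.15 to 0.11, Nusap1 from -0.30 to 0.014, Anln from -0.11 to 0.11 and Top2a from -0.25 to 0.20. These follow from the libraries in each fit; the cause of the differences between WT libraries was not tested. All members had at least 414 reads in each library.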
